A study of Xiphophorus maculatus with 24 samples.

Results

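The genes described are 40 pigment cell and melanosome genes of platyfish skin, out of 24209 genes counted. They were chosen by name: every gene whose symbol in the gene tables of the study is, or begins with, one of a fixed set of pigment gene names, such as *dct*, *oca2*, *gch*, *hps* or *ap3*. By the letter of that rule 57 genes qualified, and 17 that only share first letters with a pigment gene (such as the dynactin gene *dctn2* or *spry1*) were set aside. However, 8 members have a symbol only in the study's list of genes called cycling in some organ. They are *kita*, *kitb*, *kitlga*, *MITF (1 of many)*, *pax3a*, *pax3b*, *pax7a* and *rab38b*. These 8 entered through such a call, which for *MITF (1 of many)* included skin, so their daily change is not independent of that choice. The 40 fall into 4 genes of melanin synthesis and the melanosome, 5 receptors or ligands, 4 transcription factors, 6 genes of pteridine synthesis, 2 of purine metabolism, 3 small GTPases of organelle transport, 4 genes of the Hermansky-Pudlak syndrome (HPS) complexes, 5 subunits of BLOC-1 and 7 of the adaptor complex AP-3. Names that the tables did not pair with an identifier, such as *tyr*, *pmel* and *sox10*, were not analysed here.

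RNA-Seq was made from skin of untreated mature males of *X. maculatus* Jp 163 A, an inbred line kept by mating siblings. There are 16 libraries labelled as 24-month fish, with 2 at each of 8 times, and 8 libraries labelled as 12-month fish, with 2 at each of 4 times. The 24-month libraries carry an earlier library year than the 12-month libraries. Times are given as Zt, the hours after lights on, with 13 h of light and 11 h of dark. Every fish was kept under that cycle and fed at 8 a.m. and 3 p.m. Library year and labelled age change together, so they cannot be told apart, and the study's methods give 12 months for all fish. Below, the groups are called by their labelled age.

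Fish skin is coloured by several kinds of pigment cell. Melanophores make black melanin in melanosomes, which are organelles related to lysosomes. Xanthophores hold yellow and orange pteridines and carotenoids, and iridophores hold reflecting plates of purine crystals. Enzymes and transporters reach the melanosome by a sorting route that uses AP-3, BLOC-1 and the HPS complexes, and those complexes also serve lysosomes in other cells. Since whole skin was sequenced, fewer pigment cells and less RNA per cell cannot be told apart.

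Total counts per library ran from 25736825 to 36066368, and a count of 0 would have allowed up to 0.0832 to 0.117 CPM across the 24 libraries, for counting error only. CPM is the count of a gene scaled to a common library total. No member had a count of 0 in any library. The lowest counts belonged to *dct* and *mc1r*, with 1 count each in 1 library, to *MITF (1 of many)*, with 2 counts in that same library, and to *pnp4a*, with 3 to 23 counts. Levels below are CPM of the total count. They are not divided by transcript length, so levels are compared between samples of 1 gene and not between genes.

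One library stood apart before any comparison. In 24-month Zt 9.5 replicate A, the normalization factor of the trimmed mean of M values (TMM) was 0.617, against 0.959 to 1.08 in the other 23 libraries. There, 21 of the 40 members lay below the range of the other 15 libraries of 24-month fish, 2 lay above it and 17 within it. The share of all genes outside that range was not computed, so the count describes the library and not the members. These levels are CPM of the total count, not divided by the TMM factor. The low factor of this library was thus not removed from the count. *kitlga*, the ligand of the Kit receptors, was at 0.544 CPM against 12.9 to 30.7 CPM, and *HPS6* was at 0.311 CPM against 5.72 to 9.88 CPM, whereas *pnp4b* was at 14.3 CPM against 3.85 to 6.03 CPM.

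Markers of the skin epithelium were high in every library, with a sum over 6 markers of 19840 to 43040 CPM in the 24-month fish and 38750 to 45040 CPM in 12-month fish. A sum of 5 markers of dermal fibroblasts and scales ranged from 828.9 to 4989 CPM in the 24-month fish and from 4448 to 8483 CPM in 12-month fish, and a sum of 8 skeletal muscle markers from 2570 to 13100 CPM in the 24-month fish and from 2689 to 5561 CPM in 12-month fish. No marker used was at 0 in all libraries. The sums thus varied between libraries, and some are repeated below beside results at the same times or ages.

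Daily change was tested as a 24 h cosine at each age and in both ages together. In the 24-month fish, 3 of 40 members passed an adjusted p of 0.05, against 1.50% of all genes tested. These were *slc45a2*, *hps1* and *gch1*. In the 12-month fish, 17 members (42.5%) passed, against 36.6% of all genes, a share close to that background, and the median amplitude of the members was 0.30, as over all genes. That fit took no account of the replicate letter. With the letter as a block 17 members also passed, with *kita* and *pax3b* in place of *oca2* and *sprb*. With both ages in 1 fit, 8 members passed against 15.5%. They were *slc45a2*, *hps1*, *gch1*, *gch2*, *rab32a*, *bloc1s6*, *ap3m2* and *AP3S1*. In that fit the median amplitude over the 40 members was 0.22 log2 units from mean to peak, against 0.25 over all genes tested. Without 24-month Zt 9.5 replicate A, 6 members passed in the 24-month fish and 15 in both ages together, of 716 and 5115 genes called in all. Those added were *gch2*, *rab32a* and *bloc1s6* in the 24-month fish, and *oca2*, *rab27a*, *sprb*, *ap3d1*, *ap3m1*, *bloc1s2* and *bloc1s3* in both ages together, with adjusted p of 0.0154 to 0.0469 without that library. With the time point as a factor instead of a cosine, none of the 3 members called in the 24-month fish passed, and *bloc1s6* did (adjusted p = 0.0413). The 24-month libraries lettered A and B and those lettered C and D come from different times. A fit with the time point as a factor therefore cannot separate time from a difference between those sets.

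**Figure D1:**
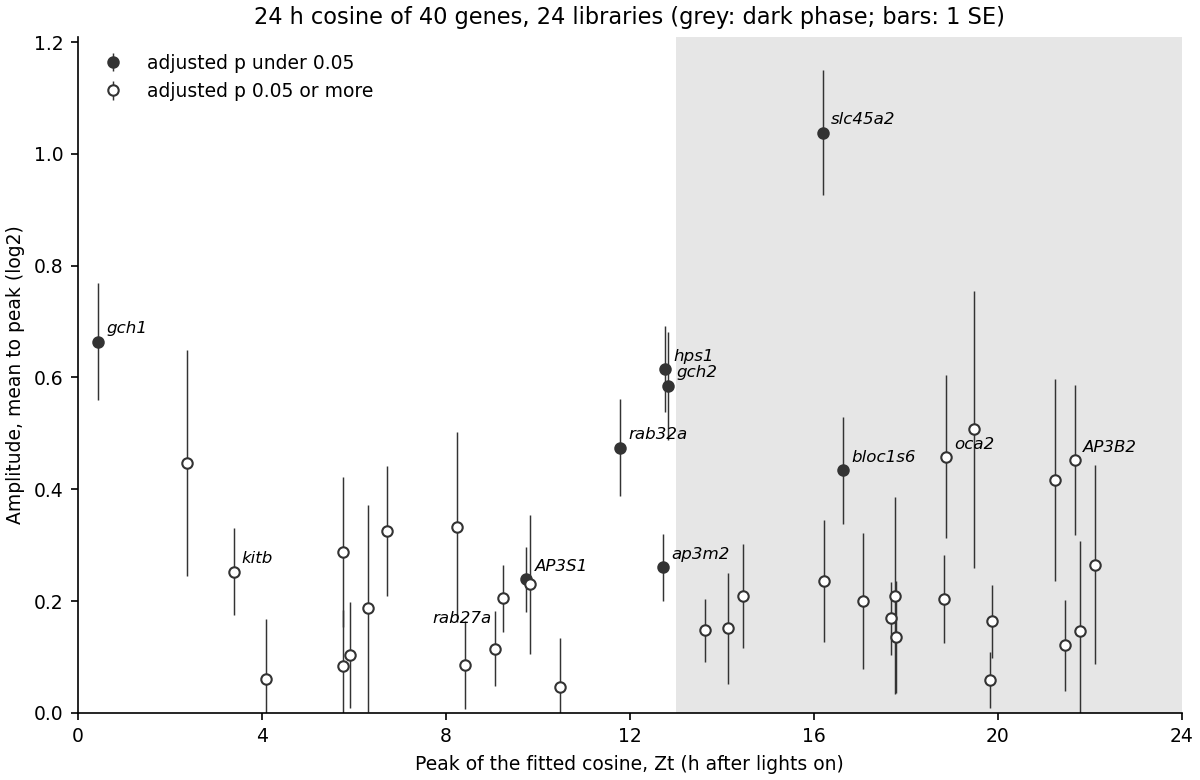
Amplitude of the fitted 24 h cosine (log2 units, mean to peak, bars 1 SE) against its peak (Zt in hours after lights on) for the 40 genes over all 24 libraries. Filled points passed an adjusted p of 0.05: *slc45a2* has an amplitude of 1.04 in the dark phase, *hps1*, *gch2* and *rab32a* lie close to the end of the light phase, and *gch1* lies at lights on.

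*slc45a2* encodes a transporter of the melanosome membrane, whose loss makes animals pale, and lies on chromosome 8 from 18183832 to 18205982 (RefSeq, assembly X_maculatus-5.0-male). It had the largest amplitude of the 40 members in the fit of both ages. Its 2 libraries of the 24-month fish stood at 1.46 and 1.77 CPM at Zt 0.5, at 0.621 and 1.06 CPM at Zt 3.5, at 2.08 and 1.25 CPM at Zt 6.5 and at 1.32 and 1.79 CPM at Zt 9.5. They then stood at 2.61 and 4.11 CPM at Zt 12.5, at 6.40 and 5.23 CPM at Zt 15.5, at 2.76 and 3.83 CPM at Zt 18.5 and at 2.51 and 2.61 CPM at Zt 21.5. Thus all 8 libraries from Zt 12.5 to Zt 21.5 were higher than all 8 libraries from Zt 0.5 to Zt 9.5. The 12-month libraries were at 1.74 and 1.67 CPM at Zt 0.5, at 1.29 and 1.69 CPM at Zt 6.5, at 3.98 and 2.70 CPM at Zt 12.5 and at 6.22 and 6.79 CPM at Zt 18.5. There too, the evening and night libraries were above every morning and midday library.

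The cosine of *slc45a2* had an amplitude of 0.99 ± 0.15 (SE, n = 16) and a peak at Zt 15.8 in the 24-month fish (adjusted p = 0.00504). It had 1.15 ± 0.15 (SE, n = 8) and a peak at Zt 16.9 in the 12-month fish (adjusted p = 0.00185). With both ages, the amplitude was 1.04 ± 0.11 (adjusted p = 4.39e-06), which is a 4.22-fold difference between peak and trough with a 95% interval from 3.11 to 5.71. The call held without each library in turn, in 24-month fish, in the 12-month fish and in both ages together. In 24-month fish *slc45a2* fell short with the time point as a factor (adjusted p = 0.0542) and did not pass an exact rank test for 1 rise and 1 fall over the day (p = 0.0861, adjusted p = 0.413). The 8 libraries of 24-month fish lettered A and B and the 8 lettered C and D come from different times, and alone they gave amplitudes of 1.36 and 0.69 with peaks at Zt 15.96 and 15.63, neither of which passed the test (adjusted p = 0.315 and 0.167). Counts of *slc45a2* were low, from 20 to 204 in the 24-month fish and from 38 to 180 in 12-month fish.

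**Figure D2:**
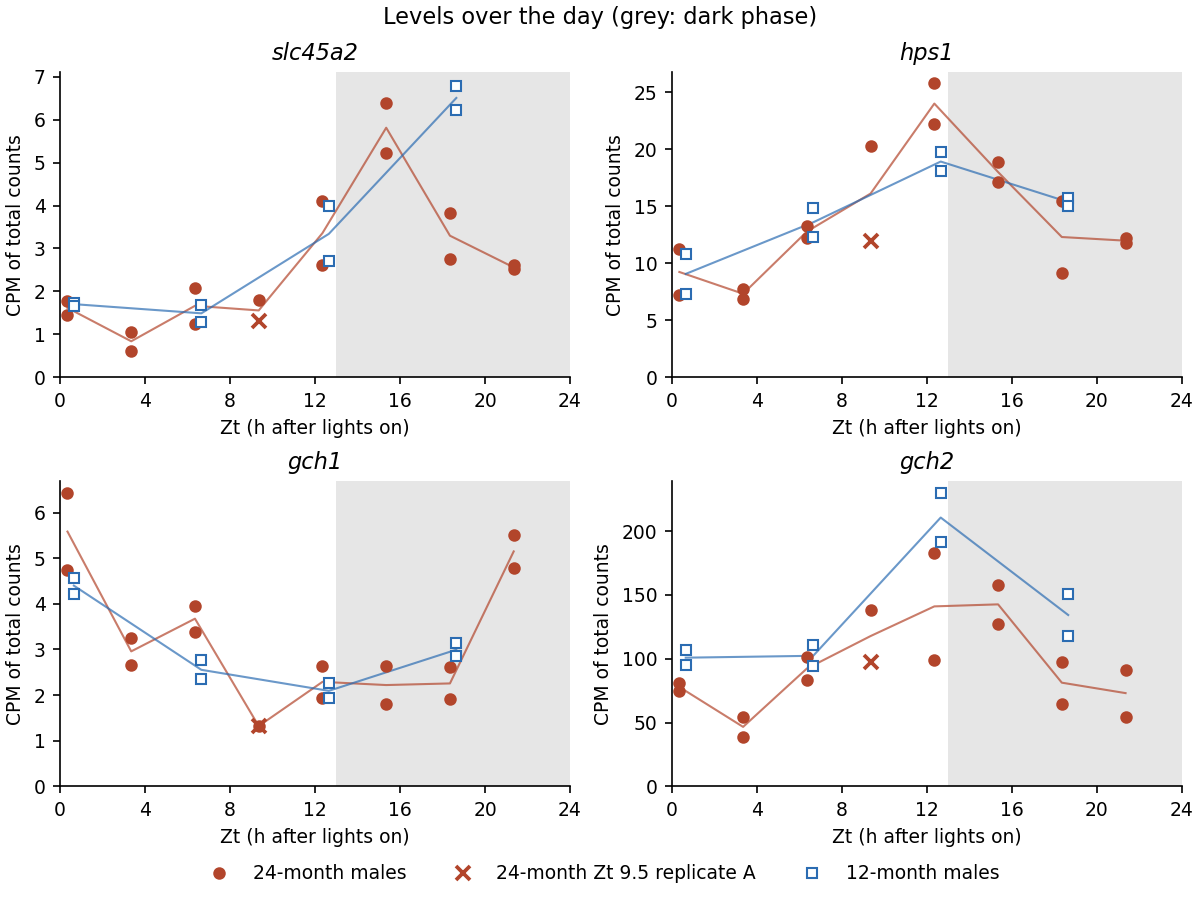
CPM of the total count (y axis) against Zt in hours after lights on (x axis) for *slc45a2*, *hps1*, *gch1* and *gch2*, with 1 point per library and lines through the means of 2 libraries. Red points are 24-month males and blue squares 12-month males. *slc45a2* is highest at night, at 5.23 to 6.40 CPM at Zt 15.5 in the 24-month fish and 6.22 to 6.79 CPM at Zt 18.5 in 12-month fish.

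Of the other 3 genes of melanin synthesis and the melanosome, none passed for daily change in 24-month fish. *dct*, dopachrome tautomerase, acts in the later steps of melanin synthesis. It ranged from 0.0389 CPM in 24-month Zt 9.5 replicate A, which is 1 count, over a median of 1.36 CPM in the other 15 libraries to 5.05 CPM in 24-month Zt 15.5 replicate A, and from 0.959 to 2.36 CPM in 12-month fish. Its amplitudes were 0.67 ± 0.36 in the 24-month fish and 0.32 ± 0.21 in the 12-month fish (adjusted p = 0.463 and 0.453), and the libraries of Zt 15.5 in 24-month fish, at 5.05 and 1.41 CPM, lay far apart. *slc24a5*, a cation exchanger of the melanosome known from the golden zebrafish, ranged from 0.561 to 2.92 CPM in the 24-month fish and from 0.882 to 1.92 CPM in the 12-month fish (adjusted p = 0.812 and 0.559).

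*oca2*, a melanosomal transport protein that is lost in a common form of albinism, passed for daily change in the 12-month fish only. In the 24-month fish its time point means ran between 3.72 ± 0.30 CPM at Zt 3.5 and 10.5 ± 4.9 CPM at Zt 21.5 (SD, n = 2). The lowest library of 24-month fish was at 3.29 CPM and the highest at 14.2 CPM. In the 12-month fish its means were lowest at Zt 6.5, with 4.76 ± 0.32 CPM, and highest at Zt 18.5, with 8.32 ± 2.17 CPM. Its cosine peaked at Zt 18.4 in the 24-month fish with an amplitude of 0.51 ± 0.21 (adjusted p = 0.287) and at Zt 19.9 in the 12-month fish with 0.38 ± 0.10 (adjusted p = 0.0479). The 12-month call was lost without each of 7 of the 8 libraries. With both ages the adjusted p was 0.0753, and 0.0417 without 24-month Zt 9.5 replicate A. In the 12-month fish same-lettered libraries deviated together, and with the letter as a block *oca2* no longer passed (adjusted p = 0.0633).

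**Figure D3:**
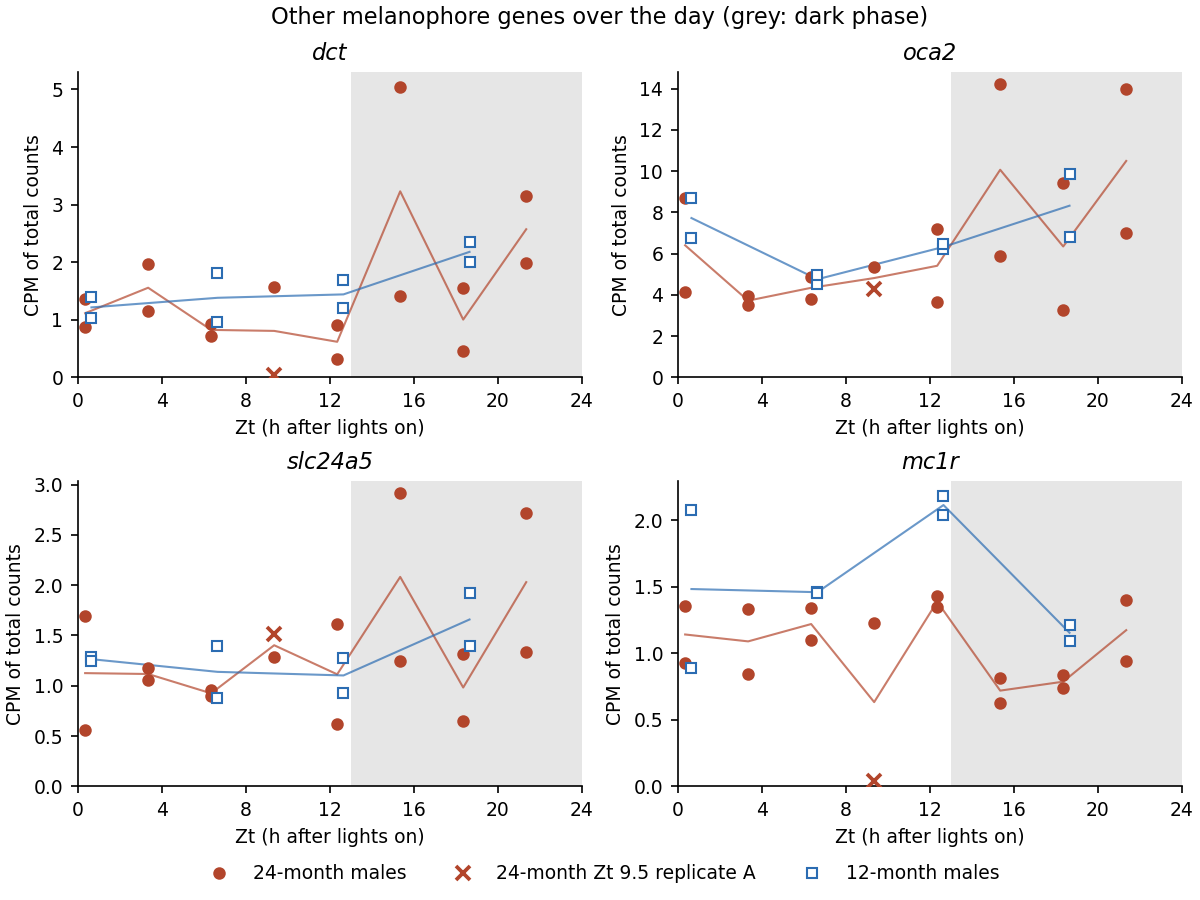
CPM of the total count (y axis) against Zt in hours after lights on (x axis) for *dct*, *oca2*, *slc24a5* and *mc1r*, with 1 point per library, lines through the means of 2 libraries, red points for 24-month and blue squares for 12-month fish. The 2 libraries of *dct* at Zt 15.5 in the 24-month fish lie far apart, at 5.05 and 1.41 CPM, and the cross marks the 24-month Zt 9.5 library with 1 count of *dct* and of *mc1r*.

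The relation of *dct* to 7 other pigment genes was computed over the libraries of each age, which makes 14 relations. The strongest in the 24-month fish was with *oca2* (Pearson's r = 0.605, permutation p = 0.0126, adjusted p = 0.176; Spearman's rho = 0.562, permutation p = 0.0259, adjusted p = 0.254, n = 16). Without the 2 libraries farthest from the median of *dct* the r with *oca2* was 0.698. With *slc24a5* the r in the 24-month fish was 0.459 (permutation p = 0.0742, adjusted p = 0.301), with rho = 0.529 (permutation p = 0.0374, adjusted p = 0.254), and 0.808 without those libraries. The r of *dct* in the 24-month fish was negative with *pnp4a* (-0.446), *gch2* (-0.362) and *ltk* (-0.258), and was 0.295 with *mc1r*. Without the 2 farthest libraries these were -0.0927, -0.445, -0.535 and -0.126. In the 12-month fish the r was 0.00311 with *pnp4a*, 0.0429 with *gch2*, 0.274 with *ltk* and -0.138 with *mc1r*. None of the 14 relations passed the adjusted threshold. Libraries share a time of day and a depth, and these values describe the libraries. In the 12-month fish, *dct* and *slc45a2* had r = 0.658 (exact permutation p = 0.086, adjusted p = 0.301, n = 8) and rho = 0.476 (exact permutation p = 0.243, adjusted p = 0.486), and r = 0.450 without the 2 farthest libraries. For this pair the 24-month r was 0.243 (permutation p = 0.366, adjusted p = 0.569) with rho = 0.0882 (permutation p = 0.746, adjusted p = 0.95), and r = -0.0484 without the 2 farthest libraries. For *dct* and *oca2* the 12-month r was 0.174 (exact permutation p = 0.669, adjusted p = 0.851) with rho = 0.214 (exact permutation p = 0.619, adjusted p = 0.95), and r = -0.0406 without the 2 farthest. *dct* and *slc24a5* had a 12-month r of 0.522 (exact permutation p = 0.187, adjusted p = 0.435) with rho = 0.690 (exact permutation p = 0.0694, adjusted p = 0.254), and r = 0.369 without the 2 farthest.

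Pteridine synthesis starts from GTP with GTP cyclohydrolase I, of which the skin expressed 2 genes that peaked at different times of day. *gch2*, which marks xanthophores in zebrafish, was highest near the change from light to dark. Its 2 libraries of the 24-month fish were at 81.2 and 74.5 CPM at Zt 0.5, at 54.7 and 38.5 CPM at Zt 3.5, at 101.5 and 83.2 CPM at Zt 6.5 and at 97.2 and 138.4 CPM at Zt 9.5. They were at 99.1 and 183.0 CPM at Zt 12.5, at 127.2 and 158.1 CPM at Zt 15.5, at 97.8 and 64.8 CPM at Zt 18.5 and at 91.6 and 54.6 CPM at Zt 21.5. Both libraries of Zt 3.5 were thus below every library from Zt 6.5 to Zt 18.5. *gch2* of the 12-month fish was at 95.1 and 106.6 CPM at Zt 0.5, at 94.3 and 110.4 CPM at Zt 6.5, at 229.6 and 191.8 CPM at Zt 12.5 and at 117.9 and 150.7 CPM at Zt 18.5. Both libraries of Zt 12.5 were above the other 6.

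The cosine of *gch2* peaked at Zt 12.5 in 24-month fish, with an amplitude of 0.61 ± 0.13 that missed the threshold (adjusted p = 0.0589; 0.0469 without Zt 9.5 replicate A), and at Zt 13.6 in the 12-month fish with 0.56 ± 0.10 (adjusted p = 0.00743). With both ages the amplitude was 0.59 ± 0.10 (adjusted p = 0.00126), a 2.25-fold difference between peak and trough with a 95% interval from 1.73 to 2.92. The sum of dermal fibroblast and scale markers was also highest at Zt 12.5 at both ages, at a mean of 4311 CPM against 1244 to 2222 CPM at the other times of 24-month fish, and at 7641 CPM against 5201 to 6691 CPM at the other times of 12-month fish. At Zt 15.5 of 24-month fish, where *gch2* had its highest mean, that sum was 1826 CPM. The part of the dermis in the daily change of *gch2* was not tested. *xdh*, *pts* and *ltk*, which are also named for xanthophores or iridophores, had adjusted p between 0.688 and 0.912 for the cosine in both ages together. With the time point as a factor, *xdh* and *pts* passed there (adjusted p = 0.0497 and 0.0478), a fit that cannot separate time from the lettered sets in 24-month fish.

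*gch1*, the other GTP cyclohydrolase, which also supplies tetrahydrobiopterin to other cells, was highest around lights on. Its 24-month libraries were at 4.74 and 6.43 CPM at Zt 0.5, at 3.26 and 2.66 CPM at Zt 3.5, at 3.96 and 3.39 CPM at Zt 6.5 and at 1.32 CPM in both libraries of Zt 9.5. They were at 1.94 and 2.65 CPM at Zt 12.5, at 2.63 and 1.81 CPM at Zt 15.5, at 1.90 and 2.61 CPM at Zt 18.5 and at 4.80 and 5.50 CPM at Zt 21.5. The 4 libraries of Zt 21.5 and Zt 0.5 were above the other 12. *gch1* of the 12-month fish stood at 4.58 and 4.22 CPM at Zt 0.5, at 2.35 and 2.76 CPM at Zt 6.5, at 2.26 and 1.93 CPM at Zt 12.5 and at 2.86 and 3.13 CPM at Zt 18.5. The 2 libraries of Zt 0.5 were again above the rest. The sum of skeletal muscle markers was also highest at Zt 0.5, at means of 10410 CPM in the 24-month fish and 5140 CPM in the 12-month fish. At Zt 21.5 of 24-month fish, where *gch1* was also high, that sum was 5295 CPM. The part of muscle in the daily change of *gch1* was not tested.

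The cosine of *gch1* peaked at Zt 0.60 in 24-month fish, with an amplitude of 0.73 ± 0.15 (adjusted p = 0.0474), and at Zt 24.0 in 12-month fish, with 0.54 ± 0.11 (adjusted p = 0.0123). The 24-month call was lost without any 1 of 11 of the 16 libraries (adjusted p up to 0.119), with the total count as library size (0.063), with no filter on low counts (0.0555), with the time point as a factor (0.0778) and with the letter as a block (0.0723), and the 12-month call without Zt 12.5 replicate B or Zt 0.5 replicate B. With both ages the peak was at Zt 0.45, with an amplitude of 0.66 ± 0.10 (adjusted p = 0.000834), and this call held without each library in turn. The fitted peaks of *gch2* and *gch1* with both ages were thus at Zt 12.8 and Zt 0.45, near lights off and near lights on.

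Of the other pteridine genes, *gchfr* and *sprb* passed in the 12-month fish. *gchfr* encodes the protein that couples GTP cyclohydrolase I to its end product. It was highest at Zt 6.5 and lowest at Zt 18.5 in 12-month fish, with 13.1 ± 1.3 and 8.25 ± 1.21 CPM (SD, n = 2), and passed at that age with a peak at Zt 6.2 (amplitude 0.37 ± 0.08, adjusted p = 0.0196). This call was lost without Zt 6.5 replicate A, Zt 18.5 replicate A or Zt 18.5 replicate B. In the 24-month fish its fitted peak was at Zt 7.1 (adjusted p = 0.456). *sprb*, a sepiapterin reductase, passed in the 12-month fish with a peak at Zt 12.1 (amplitude 0.28 ± 0.07, adjusted p = 0.0375; 0.0544 with the letter as a block), a call that was lost without each of 5 of the 8 libraries. With both ages its adjusted p was 0.379, and 0.0154 without 24-month Zt 9.5 replicate A. The mean of *sprb* in 12-month fish was highest at Zt 12.5, as was the dermal marker sum, whose part was not tested. *pts*, which makes the precursor of tetrahydrobiopterin, ranged from 23.2 to 62.6 CPM in the 24-month fish and from 46.1 to 68.8 CPM in 12-month fish, and *xdh*, xanthine dehydrogenase of the yellow pterins and of purine breakdown, from 28.9 to 70.3 CPM in the 24-month fish and from 53.8 to 73.6 CPM in 12-month fish. Neither passed the cosine test at either age, and *xdh* passed in 12-month fish with the time point as a factor (adjusted p = 0.0299).

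Of the purine genes, *pnp4a*, a purine nucleoside phosphorylase that marks iridophores in zebrafish, was at 0.125 to 0.566 CPM in the 24-month fish and 0.116 to 0.870 CPM in 12-month fish, so that a daily change would be hard to detect at this depth (adjusted p = 0.388 and 0.167). *pnp4b* was at 3.85 to 6.03 CPM in 15 libraries of 24-month fish, at 14.3 CPM in Zt 9.5 replicate A and at 2.40 to 3.61 CPM in 12-month fish. Its cosine did not pass at either age (adjusted p = 0.370 and 0.326), and without Zt 9.5 replicate A its amplitude in the 24-month fish was 0.04 instead of 0.45.

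*hps1* encodes a subunit of BLOC-3, which in mammals activates RAB32 and RAB38, and *rab32a* encodes 1 of these GTPases, which carry cargo to the melanosome. *hps1* lies on chromosome 22 from 13781700 to 13789985 in the same assembly. It was lowest at Zt 3.5 in 24-month fish, with 7.76 and 6.89 CPM, and highest at Zt 12.5, with 22.2 and 25.8 CPM. The 12-month fish had it lowest at Zt 0.5, with 10.9 and 7.28 CPM, and highest at Zt 12.5, with 18.1 and 19.7 CPM. At both ages the libraries of Zt 12.5 were above every other library of their age. The fitted peak was at Zt 12.8 in the 24-month fish (amplitude 0.65 ± 0.11, adjusted p = 0.0114) and at Zt 12.8 in the 12-month fish (0.54 ± 0.09, adjusted p = 0.00689). Both ages together gave 0.62 ± 0.08 (adjusted p = 4.82e-05), a 2.35-fold difference between peak and trough with a 95% interval from 1.90 to 2.89, and the call held without each library in turn. The 24-month libraries lettered A and B peaked at Zt 13.3 and those lettered C and D at Zt 12.3, and neither set passed alone (adjusted p = 0.734 and 0.136). With the time point as a factor, *hps1* did not pass in 24-month fish (adjusted p = 0.0652). The highest time of *hps1* at both ages was also that of the highest dermal marker sum, whose part was not tested.

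*rab32a* peaked close to *hps1*. Its means in the 24-month fish were 16.1 ± 2.3 CPM at Zt 3.5, where they were lowest, and 35.0 ± 2.2 CPM at Zt 12.5, where they were highest (SD, n = 2). Those of the 12-month fish were 17.1 ± 0.5 CPM at Zt 0.5 and 25.6 ± 1.4 CPM at Zt 12.5. The adjusted p was 0.0533 in the 24-month fish (0.0407 without Zt 9.5 replicate A), 0.0369 in the 12-month fish and 0.00308 in both ages together, with a peak at Zt 11.8 and an amplitude of 0.47 ± 0.09. At both ages its highest time was that of the highest dermal marker sum, and the part of the dermis was not tested. *rab27a*, which links melanosomes to myosin motors in mammals, passed in 12-month fish, with a peak at Zt 11.3 (amplitude 0.37 ± 0.06, adjusted p = 0.00545). There its 2 libraries were at 48.0 and 56.6 CPM at Zt 0.5 and at 85.6 and 84.2 CPM at Zt 12.5. Its highest time at that age was also that of the highest dermal marker sum, whose part was not tested. In the 24-month fish the adjusted p of *rab27a* was 0.309, and the difference of its daily change between the ages did not pass (adjusted p = 0.505).

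The BLOC-1 and AP-3 subunits are found in most cell types, not in pigment cells alone. *bloc1s6* (pallidin) had means of 16.9 ± 0.3 CPM at Zt 3.5 and 43.2 ± 3.6 CPM at Zt 15.5 in 24-month fish, and of 21.5 ± 0.3 CPM at Zt 6.5 and 38.4 ± 2.7 CPM at Zt 18.5 in the 12-month fish (SD, n = 2), with a peak at Zt 16.6 and an amplitude of 0.43 ± 0.10 in both ages together (adjusted p = 0.0134). It was the single one of 5 BLOC-1 genes that passed in both ages together. *ap3m2*, a medium subunit of AP-3, peaked at Zt 12.7 (amplitude 0.26 ± 0.06, adjusted p = 0.0158), and *AP3S1*, a small subunit, at Zt 9.8 (0.24 ± 0.06, adjusted p = 0.0205). With the time point as a factor instead of a cosine, both fell short (adjusted p = 0.0553 and 0.175). *AP3S1* also fell short with the total count as library size. The means of *ap3m2* were highest at Zt 12.5 at both ages, as was the dermal marker sum, whose part was not tested. The same holds for *AP3S1*, *ap3d1* and *ap3m1* in the 12-month fish. Within the 12-month fish alone, *ap3d1*, *ap3m1* and *AP3B2* also passed, so that 5 of 7 AP-3 genes did, where 36.6% of all genes passed. *AP3B2*, whose mammalian counterpart is found mainly in neurons, was at 7.15 and 5.57 CPM at Zt 0.5 and at 2.58 and 2.01 CPM at Zt 12.5, whereas the medium subunits were highest at Zt 12.5 there. *hps5*, a subunit of BLOC-2, also passed in 12-month fish, with a peak at Zt 2.4 (amplitude 0.30 ± 0.08, adjusted p = 0.0383), and this call was lost without each of 6 of the 8 libraries (adjusted p up to 0.103) and with no filter on low counts (0.0637). The 12-month calls of *AP3S1* and *rab32a* were lost without 5 and 4 of the 8 libraries. Those of *AP3B2* and *ap3m1* were also lost without single libraries. *hps3* and *HPS6*, the other subunits of BLOC-2, the BLOC-1 genes *bloc1s2*, *bloc1s3*, *bloc1s4* and *bloc1s5*, the AP-3 genes *ap3b1a* and *ap3s2*, and *rab38b* passed at neither age. Without 24-month Zt 9.5 replicate A the adjusted p of *ap3d1* in both ages together was 0.0384 instead of 0.807.

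Among receptors and transcription factors, 1 gene passed for daily change, in the 12-month fish. None of the 5 receptor and ligand genes passed in 24-month fish, in the 12-month fish or in both ages together. *kita*, the Kit receptor that melanophores of zebrafish need, was at 52.2 to 114.7 CPM in the 24-month fish and 62.0 to 136.2 CPM in the 12-month fish (adjusted p = 0.343 and 0.0756; 0.0349 in the 12-month fish with the letter as a block). *mc1r*, the receptor for melanocyte-stimulating hormone, was at 0.624 to 1.43 CPM in 15 libraries of 24-month fish and at 0.888 to 2.19 CPM in the 12-month fish (adjusted p = 0.777 and 0.414). Of the transcription factors, *pax7a*, needed by xanthophores in zebrafish, passed in the 12-month fish with a peak at Zt 17.3 (amplitude 0.25 ± 0.07, adjusted p = 0.0474), a call that was lost without each of 7 of the 8 libraries. *MITF (1 of many)*, a copy of the melanocyte master regulator, peaked at Zt 19.9 in the 24-month fish and at Zt 2.1 in the 12-month fish and passed in neither (adjusted p = 0.317 and 0.131). *pax3b* missed the threshold in the 12-month fish (adjusted p = 0.0539) and passed with the letter as a block (adjusted p = 0.027). *kitlga*, *kitb*, *ltk* and *pax3a* passed the cosine test at neither age and not in both together. With the time point as a factor, *pax3a* passed in the 12-month fish and in both ages together (adjusted p = 0.00947 and 0.00593), and *kitb* in the 12-month fish (0.0296). *MITF (1 of many)* and *kita* also passed in the 12-month fish with the time point as a factor. At that age *kita*, *kitb* and *pax3b* passed with DESeq2, and *kita* and *pax3b* with the total count as library size. *MITF (1 of many)*, *hps1*, *AP3B2* and *ap3m2* are also in the study's own list of cycling skin genes, which was chosen on these samples and is not independent evidence.

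The difference of the daily change between the ages was tested on the 16 libraries of the 4 times both ages hold. No member passed an adjusted p of 0.05 by edgeR or by DESeq2, and 0.0358% of all genes passed by edgeR. An unadjusted p under 0.05 by edgeR was found for 5 of 40 members and for 3805 of 19550 genes. That share was thus not higher among the members. The smallest p belonged to *ap3b1a* (adjusted p = 0.186), *kita* (0.230) and *AP3B2* (0.235). *slc45a2* had an adjusted p of 0.319, with a mean of 3.30 ± 0.75 CPM in the 24-month fish and 6.50 ± 0.41 CPM in the 12-month fish at Zt 18.5 (SD, n = 2). The 3 members called at both ages, where 1.15% of all genes were, had fitted peaks within 3 h of each other at the 2 ages, as did all 8 members of the joint fit, which looks for a shared peak. Over all 40 members, called or not, 17 had such peaks. The share over all genes was not computed, so these counts are no result about the members.

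The level of the members was then compared between the ages at the 4 shared times, 8 libraries of 24-month fish against 8 of 12-month fish. The 24-month libraries of these times are all lettered C and D. Those lettered A and B, from other times, were not in this test, which held no term for the letter. Of the 40 members, 20 (50.0%) differed, against 45.2% of all genes. Of these, 16 were lower in 24-month fish, where 22.4% of all genes were, and 4 were higher, where 22.8% of all genes were. The median log2 fold change of 24-month over 12-month fish was -0.25 over the members and 0.00 over all genes. Genes lower in the 24-month fish were 4 of 5 receptors and ligands, 3 of 4 transcription factors and 4 of 6 pteridine genes. So were 1 of 4 genes of melanin synthesis and the melanosome, 0 of 2 purine genes and 1 of 3 GTPases. Of the complexes, 0 of 4 HPS genes, 1 of 5 BLOC-1 genes and 2 of 7 AP-3 genes were lower. In the same libraries the sum of dermal fibroblast and scale markers had a median of 2222 CPM in the 24-month fish and of 6502 CPM in 12-month fish, that of nerve and glia markers 90.9 and 145.0 CPM, that of leukocyte markers 474.9 and 719.4 CPM, and that of muscle markers 7065 and 4061 CPM. The sum of skin epithelium markers had medians of 31870 CPM in the 24-month fish and 39750 CPM in the 12-month fish. The part of these in the levels of the pigment genes was not tested.

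**Figure D4:**
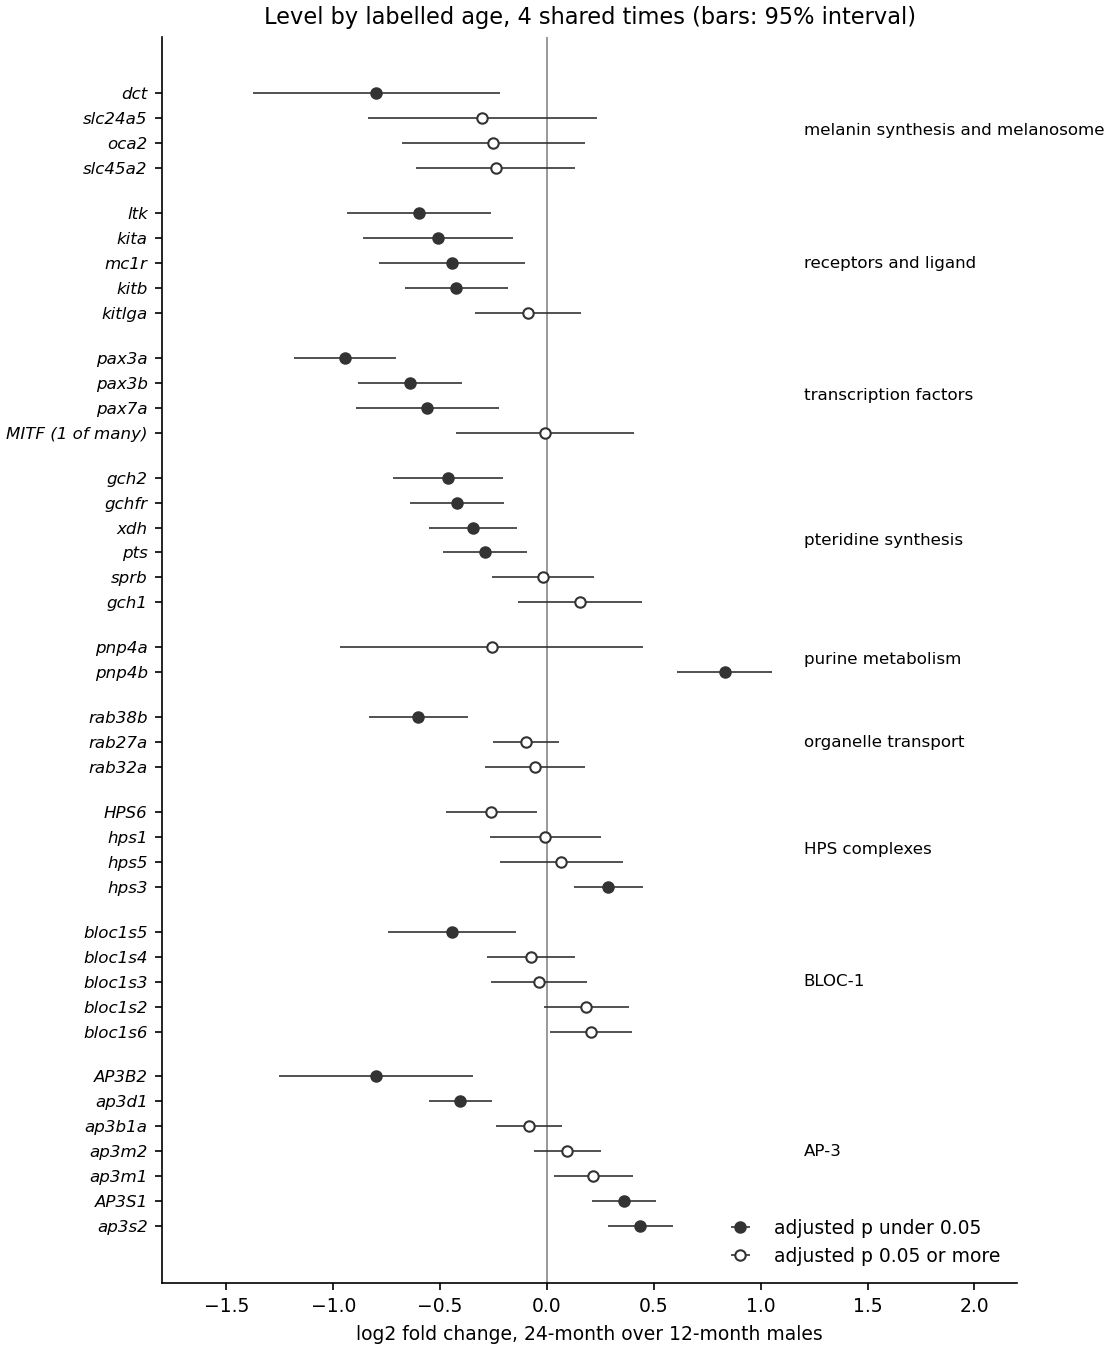
Log2 fold change of 24-month fish over 12-month fish for the 40 genes at the 4 shared times, by class, with 95% intervals. Filled points passed an adjusted p of 0.05: most lie left of 0, from *pax3a* at -0.94 to *pts* at -0.29, and *pnp4b*, *ap3s2*, *AP3S1* and *hps3* lie right of 0.

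*pax3a*, a transcription factor of the neural crest and its pigment cells, differed most among the genes lower in 24-month fish. It was at 2.25 to 5.18 CPM (median 3.80) in the 24-month fish and at 3.02 to 10.5 CPM (median 7.33) in the 12-month fish, a log2 fold change of -0.94 ± 0.12 (SE, n = 8 each, adjusted p = 3.37e-05), and it was lower at all 4 times. The 2 ranges overlapped through the Zt 18.5 libraries of 12-month fish. Its copy *pax3b* was at 4.46 to 8.08 CPM and at 6.25 to 11.6 CPM in these groups (-0.64 ± 0.12, adjusted p = 0.000835), and *pax7a* at 12.1 to 41.4 CPM and 25.0 to 42.7 CPM (-0.56 ± 0.17, adjusted p = 0.0154).

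*ltk*, the receptor tyrosine kinase of iridophores in zebrafish, was at 14.8 to 49.0 CPM (median 37.0) in the 24-month fish and at 44.3 to 65.3 CPM (median 53.2) in the 12-month fish (-0.60 ± 0.17, adjusted p = 0.011). *kitb* averaged 14.4 ± 1.9 CPM in the 24-month fish and 19.7 ± 5.1 CPM in the 12-month fish (SD, n = 8 each; -0.42 ± 0.12, adjusted p = 0.0114). *kita* was lower in the 24-month fish as well (-0.51 ± 0.18, adjusted p = 0.0314), but at Zt 12.5 alone the log2 ratio was the other way, at 0.43. That call, and those of *mc1r*, *dct*, *pts* and *bloc1s5*, were lost without single libraries, with adjusted p of up to 0.105. Of 16 fits without 1 library each, *mc1r* passed in 3, *kita* and *dct* in 7, *bloc1s5* in 9 and *pts* in 10. *mc1r* also fell short with the total count as library size and with no filter on low counts. *dct* averaged 0.889 ± 0.411 CPM in the 24-month fish and 1.55 ± 0.49 CPM in the 12-month fish (-0.80 ± 0.30, adjusted p = 0.0385). Over all 8 times of 24-month fish *dct* averaged 1.47 ± 1.22 CPM (SD, n = 16). The levels of *slc45a2*, *oca2* and *slc24a5* did not pass, with log2 fold changes of -0.24 ± 0.19, -0.25 ± 0.22 and -0.30 ± 0.27.

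Among the pteridine genes, *gch2* averaged 98.1 ± 36.6 CPM in the 24-month fish and 137.1 ± 49.8 CPM in the 12-month fish (SD, n = 8 each; -0.46 ± 0.13, adjusted p = 0.0104) and was lower at all 4 times. *gchfr* (-0.42 ± 0.11, adjusted p = 0.00686), *xdh* (-0.35 ± 0.11, adjusted p = 0.0149) and *pts* (-0.29 ± 0.10, adjusted p = 0.0289) were lower in the 24-month fish too, whereas *gch1* and *sprb* had log2 fold changes of 0.16 ± 0.15 and -0.02 ± 0.12 that did not pass.

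The 4 genes higher in the 24-month fish were *pnp4b*, *ap3s2*, *AP3S1* and *hps3*. *pnp4b* was at 6.03, 5.32, 4.23, 5.04, 5.81, 4.93, 4.70 and 5.18 CPM in the 24-month fish and at 3.40, 2.80, 3.61, 2.91, 2.40, 2.43, 2.61 and 3.10 CPM in 12-month fish, in order of time. The groups did not overlap, and the log2 fold change was 0.83 ± 0.11 (adjusted p = 5.86e-05). *ap3s2*, a small subunit of AP-3, was at 34.7 to 41.1 CPM in the 24-month fish and at 23.7 to 31.7 CPM in the 12-month fish (0.44 ± 0.08, adjusted p = 0.000471), also without overlap. *rab38b*, with 2.64 to 3.48 CPM in the 24-month fish and 3.59 to 5.97 CPM in the 12-month fish (-0.60 ± 0.12, adjusted p = 0.000914), also had groups that did not overlap. The share of all genes without overlap was not computed, so it is not known whether this is particular to these genes. The AP-3 genes had no shared direction, since *ap3d1* (-0.41 ± 0.08, adjusted p = 0.000652) and *AP3B2* (-0.80 ± 0.23, adjusted p = 0.0117) were lower in 24-month fish.

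A wider list of pigment pathway genes outside the 40 was read from the same tables, where 35 of 74 had an identifier. Among 24-month fish no gene of the 34 tested passed for daily change, against 1.50% of all genes. Among 12-month fish, 10 of 33 did, against 36.6% of all genes, and in both ages together 5 of 34, against 15.5%, which were *atic*, *paics*, *vps33a*, *bco1* and *scarb1*. *atic* and *paics*, enzymes of purine synthesis, peaked at Zt 8.8 (amplitude 0.38 ± 0.07, adjusted p = 0.0044) and at Zt 8.2 (0.35 ± 0.08, adjusted p = 0.0186). *bco1* (0.51 ± 0.13, adjusted p = 0.0275), which cleaves carotenoids, peaked at Zt 6.7 and *scarb1* (0.25 ± 0.07, adjusted p = 0.0469), which takes them up, at Zt 11.4. In level, 17 of 33 differed, against 45.2% of all genes, 12 of them lower and 5 higher in 24-month fish. *slc7a11*, the cystine transporter that shapes melanin type in mice, averaged 6.54 CPM in the 24-month fish and 12.5 CPM in the 12-month fish (-0.94 ± 0.11), and *sox5*, a factor that sets pigment cell fate in medaka, 15.6 and 26.5 CPM (-0.78 ± 0.09).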

How the data were processed

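The authors mapped reads with TopHat2 to the *X. maculatus* genome version 5.0, counted them on Ensembl release 94 gene models with featureCounts and deposited raw counts of 24209 genes in 24 libraries, without normalization or pooling. Their versions and their strand and multi-mapping settings were not stated, so reads of close copies could be split. Symbols came from the study's gene tables, read from page text; 21 members have a RefSeq location by symbol.

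The counts were tested with edgeR 4.0.16 (R 4.3.3, limma 3.58.1) after filterByExpr and TMM, by quasi-likelihood tests of a 24 h cosine and sine, of their interaction with age, or of age with time as a factor, with Benjamini-Hochberg adjustment over all genes at 0.05. DESeq2 1.42.0 was the alternative tool. The fits were also run on simulated counts of independent libraries. These held no shared letter effect and no outlying library, so they cannot show how the fits behave where the data have either. The amplitude is the log2 distance from mean to peak and its SE a delta-method value. Relations used log2 CPM with 0.5 CPM added and two-sided permutation tests (100000 draws, or exact for 8 libraries). Levels and ranges came from pandas 2.3.3 under Python 3.11.15, and permutations from scipy 1.17.1 and numpy 2.4.6.

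Genes named were members with an adjusted p under 0.05 in any comparison (at most 12, by smallest adjusted p), 21 listed pigment genes, the 3 members with the smallest unadjusted p in the fit of both ages, and list genes under 0.05 (at most 10); the other members were named after their values were seen. The members, lists and tests were chosen with earlier results of these data known.

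The 2 libraries of a time differed beyond sampling noise (chi-square per degree of freedom 13.7 to 402), so none was treated as a repeat. The labels do not say that fish share more than a time, and p-values measure the spread between these libraries. Same-lettered 12-month libraries deviated together (r from 0.102 to 0.216 over all 6 pairs). In 24-month fish 0 of 6 pairs lettered A and B were over 0.1 (r from -0.224 to 0.0824). Of those lettered C and D, 4 of 6 were (r from -0.0186 to 0.295). The replicate letter entered no main fit, so the 12-month calls above take no account of this shared deviation. A block by letter was fitted as an alternative at each age and in both ages together. Intervals cover counting and sample spread as fitted. Alternatives were other scalings, no filter, DESeq2, time as a factor, a block, a rank test, subsets of libraries and leaving out each library.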

Additional observations from a re-analysis of the deposited data

How the results depend on the processing

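The count of the 40 members called for daily change in 24-month fish was 3. It was 7 with DESeq2, 1 with the time point as a factor (*bloc1s6*, which is none of the 3), 0 in the replicates A and B only, 0 in the replicates C and D only (both splits chosen after seeing the data, with 8 libraries each), 0 by an exact rank test for 1 rise and 1 fall with adjustment and 4 by that test at an unadjusted p under 0.01. Without single libraries it lay between 2 and 6, with 6 without Zt 9.5 replicate A or Zt 9.5 replicate B. In 12-month fish the count was 17, and 10 to 18 without single libraries, with 10 without Zt 6.5 replicate A, Zt 12.5 replicate A or Zt 12.5 replicate B. Over all genes, 4605 to 6922 were called without single libraries. In both ages together the count was 8, and 14 over the shared times only, where 5171 of all genes were called. Without single libraries it was 8 to 15, against 2156 to 5115 of all genes, the highest without 24-month Zt 9.5 replicate A. The count for level was 20, and 15 to 20 without single libraries, against 7913 to 9533 of all genes. For the difference between ages it was 0 throughout. At Zt 12.5 alone, the log2 ratio of *kita* turned to 0.43. With the total count as library size, 2 relations of *dct* passed against 0, with *oca2* (r = 0.747) and *slc24a5* (r = 0.667). The causes were not tested.

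Over all genes, DESeq2 called 1692 against 289 genes for daily change in 24-month fish and 1587 against 7 for the difference between ages, where DESeq2 size factors in edgeR gave 88. With the replicate letter as a block, 177 genes were called against 289 in 24-month fish, 6592 against 6955 in 12-month fish and 2476 against 3065 in both ages. The block left 2 of 3 members in 24-month fish, ending the call of *gch1* (adjusted p = 0.0723), and in 12-month fish ended those of *oca2* and *sprb* and added *kita* and *pax3b*, for 17 members as before. Leaving out single libraries gave 136 to 1132 genes in 24-month fish and 0 to 1581 for the difference, the highest without 24-month Zt 18.5 replicate D (912 without replicate C). *pnp4a* had 3 to 23 counts per library.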
